A study of Homo sapiens with 4 samples.

Results

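The largest group of tRNA genes in the human genome lies on the short arm of chromosome 6, beside a cluster of histone genes, and ChIP-seq signal at these genes was examined in K562 cells. Members were all RefSeq genes of type tRNA on chromosome 6 that start between 25000000 and 30000000 (GRCh38.p14). This gave 144 tRNA genes, or 32.5% of the 443 that the assembled nuclear chromosomes hold. They ran from TRX-CAT1-2 at 26286526 to TRL-AAG3-1, which ends at 28989083, a span of 2.70 Mb, and were 71 to 108 bp long. The nearest tRNA genes of chromosome 6 beyond the limits were TRQ-CTG1-1 at 18836171 and TRI-AAT1-1 at 57800211.

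K562 is an established human line from a chronic myeloid leukemia. Untreated cells overexpressed either PHF6 with an HA tag (HA-PHF6) or HA, PHF6 being a chromatin-associated PHD finger protein that is mutated in T-cell leukemia. Chromatin was precipitated with an HA antibody, and there were 4 libraries, a ChIP library and an input titled HA and a ChIP library and an input titled WT. The titles do not settle which ChIP library came from the HA-PHF6 cells, so both are named here by their titles. With 1 library per condition there were no replicates, and no difference between the libraries could be set against a spread between replicates. After removal of duplicates, 16132466 ChIP tags were left under the label HA and 22257947 under the label WT.

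A tRNA carries one amino acid to the ribosome and reads codons through its anticodon. Its gene is short, holds the promoter within the transcribed sequence (the A and B boxes) and is read by RNA polymerase III with the factors TFIIIC and TFIIIB. Human tRNA genes exist in many copies. A symbol such as TRS-AGA2-1 gives the amino acid in one letter (S, serine), the anticodon (AGA), a number shared by genes of one mature sequence and a number for the copy. The letter X marks the initiator methionine tRNA, which starts translation, and M the methionine tRNA used within proteins. The cluster held 19 such isotypes and 38 pairs of isotype and anticodon, the anticodon CAT being shared by X and M. It lacked genes for cysteine, asparagine and selenocysteine tRNAs.

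In the library labelled HA, 92 of the 144 tRNA genes of the cluster overlapped a peak by at least 1 bp (63.9%, 95% Wilson confidence interval 55.8% to 71.3%). In the library labelled WT none did (0 of 144, interval 0% to 2.60%). The library labelled WT had the greater number of ChIP tags. As background, 9.66% of all 59679 annotated genes and 0.510% of the 3723 other genes of 71 to 108 bp held a peak labelled HA, and 4.52% and 0.0806% held a peak labelled WT. Of all 443 tRNA genes, the cluster included, 57.8% held a peak labelled HA and 2.03% a peak labelled WT. Intervals cover counting error only, and neighbouring genes of 1 library are not replicates.

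**Figure D1:**
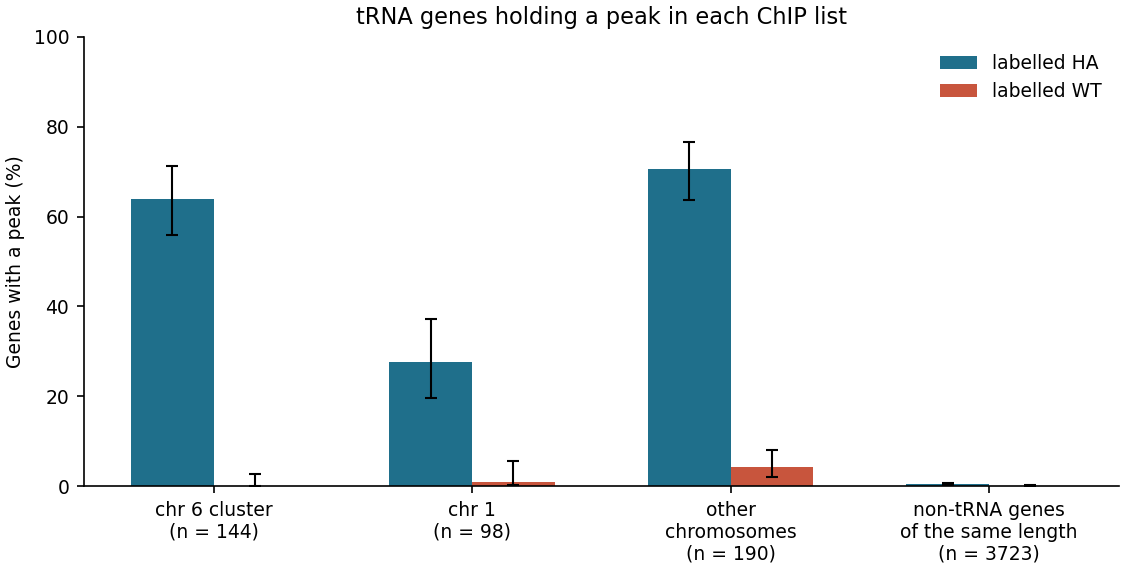
Bars give the percentage of genes that held a peak in the ChIP list labelled HA or WT, for tRNA genes of the chromosome 6 cluster, of chromosome 1 and of the other chromosomes, and for non-tRNA genes of the same length (n under each name). Lines are 95% Wilson intervals, and the cluster stood at 63.9% and 0%.

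The tRNA genes elsewhere gave the frame for this share. On chromosome 1, 27 of 98 tRNA genes held a peak labelled HA (27.6%, 19.7% to 37.1%), and on the chromosomes other than 1 and 6 it was 134 of 190 (70.5%, 63.7% to 76.6%). Over all called peaks, the interval of the cluster lay above that of chromosome 1 and overlapped that of the other chromosomes. At a stricter limit, given below, it overlapped both. The differences were not tested.

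Peaks at the cluster were among the clear calls of the list labelled HA. The peak caller gives the pileup, which is the number of extended tags at the summit, and the fold enrichment, which is the pileup over the background expected from the input after 1 is added to both. Over the 92 genes the pileup ran from 11 to 53 tags with a median of 24, and the fold enrichment from 1.98 to 10.9 with a median of 4.41. The other 12570 peaks labelled HA had a median pileup of 5 tags and a median fold of 2.93. The −log10 q, where q is the p-value adjusted by the caller, was at least 5 for 52 of the 144 genes (36.1%, 28.7% to 44.2%), against 0.411% of all genes, 0.188% of the other genes of 71 to 108 bp and 38.4% of all tRNA genes. In the library labelled WT these shares were 0.0436%, 0.0269% and 0%. These genes shared 51 peaks, which made 17.0% of the 300 peaks labelled HA at this level, and q was under 0.05 for 80 of the 92 genes.

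The background of the library labelled WT at these genes was not analysed here, because it is known only where a peak was called. The genes lie under the caller's cutoff in this library, and their tags need not be 0. The library labelled WT had 12 peaks anywhere in the window, with 6 to 15 tags and a fold of 2.11 to 3.12, and the one nearest to a tRNA gene lay 2868 bp from TRT-AGT4-1.

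The highest −log10 q of the cluster belonged to a glycine tRNA gene. TRG-GCC2-3 (27902908 to 27902978), whose anticodon reads GGC codons, had 45 tags (exact 95% Poisson interval 32.8 to 60.2) over a background of 3.36, a fold of 10.5 and a −log10 q of 28.6. It held rank 19 of the 12662 peaks labelled HA. The initiator gene TRX-CAT1-7 lies 343 bp away, and the caller split 1 region of 704 bp (27902390 to 27903093) into a summit at each gene. The summit at TRX-CAT1-7 itself had 21 tags, a fold of 4.24 and a −log10 q of 4.38, so that its place among the strongest genes came from the neighbouring summit.

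Leucine tRNA genes followed, and 7 of the 10 in the cluster held a peak labelled HA. TRL-CAG1-7, which reads CUG codons, had 42 tags (30.3 to 56.8) and the highest fold of the cluster, 10.9. All 4 genes with the anticodon CAA, which reads UUG, were called. TRL-CAA1-1 had the highest pileup of the cluster, 53 tags (39.7 to 69.3), and a fold of 7.42. TRL-CAA1-2 had 43 tags (fold 6.69), TRL-CAA2-1 34 tags (fold 9.14) and TRL-CAA3-1 32 tags (fold 7.56). The anticodons AAG (1 of 3 genes called) and TAA (1 of 2) gave fewer calls, with 13 tags at TRL-AAG2-2 and 22 tags at TRL-TAA4-1. The summits of these last genes lay 111.5 and 106 bp from the gene midpoints, outside the genes.

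All 6 genes of the initiator family TRX-CAT1 in the cluster were called. Their pileups were 28 tags at TRX-CAT1-2, 24 at TRX-CAT1-3, 32 at TRX-CAT1-4, 23 at TRX-CAT1-5, 42 (30.3 to 56.8) at TRX-CAT1-6 and 21 at TRX-CAT1-7. Fold enrichment did not follow the same order, since TRX-CAT1-2 had the lowest fold, 3.34, over a background of 7.67 tags, and TRX-CAT1-6 the highest, 8.29, over 4.18. The family has 8 copies in the genome under its number. Of the 7 elongator methionine genes (TRM), TRM-CAT3-1 and TRM-CAT3-2 were called, with 31 and 37 tags, and the other 5 were not.

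Serine genes gave 13 calls of 17. The family TRS-AGA2, which reads UCU codons, was called at all 4 of its copies in the cluster, with 37 tags (26.1 to 51.0) at TRS-AGA2-1, 27 at TRS-AGA2-2, 24 at TRS-AGA2-3 and 20 at TRS-AGA2-4. The fold fell in the same order, from 8.44 to 6.24, 4.82 and 4.15. The Poisson intervals of the highest and the lowest copy overlapped. Such overlap does not settle the order within the family, which was not tested. Among the other serine genes, TRS-CGA3-1 had the lowest fold of all called members, 1.98 with 12 tags, a q-value of 1 and a summit 170.5 bp from the gene midpoint. TRS-GCT6-1 was next with a fold of 2.58 and 16 tags.

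Alanine was the isotype with the most genes, 27, of which 15 were called. All 5 genes with the anticodon TGC were called, 2 of 3 with CGC and 8 of 19 with AGC, the highest fold being 8.74 at TRA-AGC4-1 with 31 tags. Threonine (7 of 9), glutamine (6 of 9), valine (6 of 9) and arginine (7 of 11) were mostly called. Their leading genes were TRT-TGT1-1, which reads ACA, with 34 tags and a fold of 9.20, TRV-AAC1-5 with 25 tags and a fold of 7.72, TRQ-CTG1-3 with 37 tags and a fold of 6.93, and TRR-ACG1-1 with 23 tags and a fold of 4.38. Within glutamine, all 5 genes with the anticodon CTG were called and 1 of the 4 with TTG.

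Of the isoleucine genes 6 of 13 were called. TRI-AAT2-1 had 38 tags and a fold of 8.69, and TRI-TAT2-3, which reads the AUA codon, had 35 tags and a fold of 8.25. The only glutamate gene of the cluster, TRE-CTC1-6, had 40 tags (28.6 to 54.5) and a fold of 7.91. The proline genes TRP-CGG2-1 (36 tags, fold 6.29) and TRP-AGG2-2 (27 tags, fold 4.76) were both called, as were all 3 aspartate genes, led by TRD-GTC3-1 with 24 tags and a fold of 5.55. Lysine had 5 of 6 genes called, from TRK-TTT6-1 (26 tags, fold 5.81) down to TRK-CTT2-4 (20 tags, fold 2.63), and tyrosine 3 of 4, led by TRY-GTA3-1 (28 tags, fold 6.44). Another low call was TRV-AAC3-1 with a fold of 2.75 and 19 tags.

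Phenylalanine genes gave 2 calls of 6, TRF-GAA1-1 at 22 tags and a fold of 3.89 and TRF-GAA4-1 at 11 tags and a fold of 3.87. No peak was called at the tryptophan genes TRW-CCA3-1 and TRW-CCA3-2, the histidine gene TRH-GTG1-5 or the arginine gene TRR-TCT5-1. These were the 3 of the 38 pairs of isotype and anticodon without a called gene. Numbers this small do not separate isotypes from each other.

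**Figure D2:**
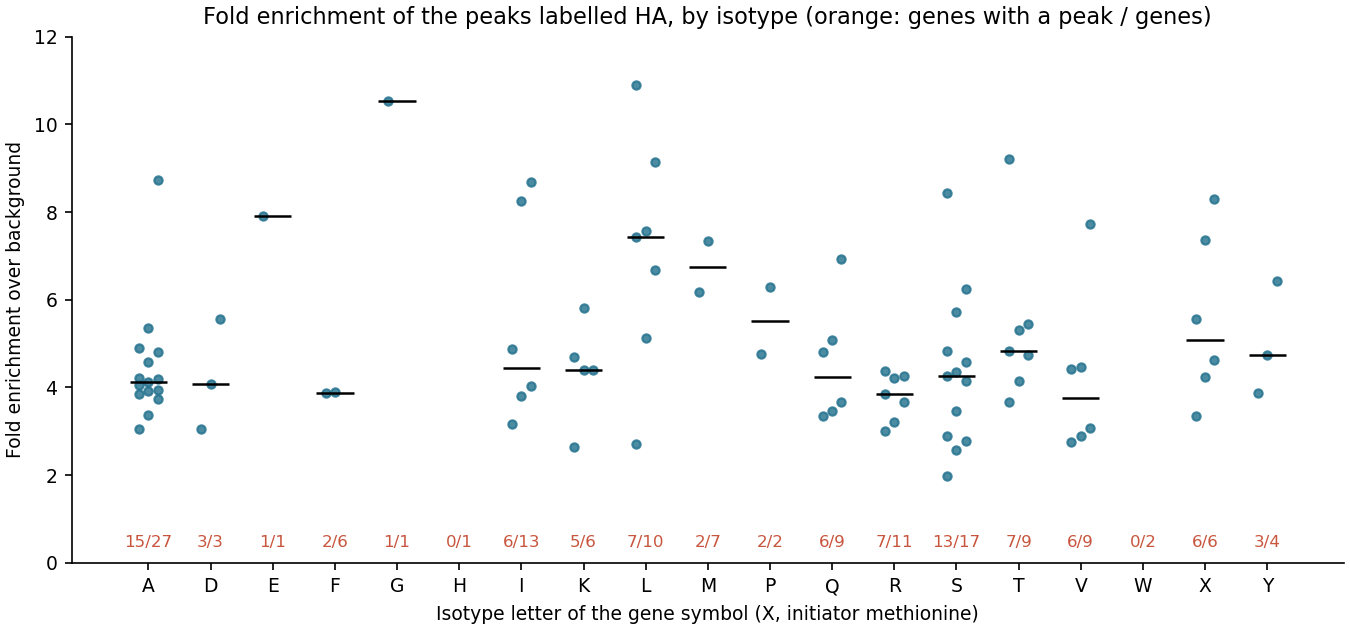
Each point is the fold enrichment labelled HA of 1 called tRNA gene of the cluster, by the isotype letter of its symbol, with the value of its own summit; black lines are medians. Numbers in orange give genes with a peak over genes, from 6/6 for the initiator (X) to 0/2 for tryptophan (W).

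Among the 52 genes without a peak labelled HA, 19 followed each other without a break, from TRY-GTA6-1 to TRA-AGC14-2 (26594874 to 26828299). The next longest run without a call had 6 genes. Neither list had a peak of any kind within these 233426 bp, and between TRY-GTA3-1 and TRI-TAT2-2 the list labelled HA had no peak over 442955 bp. From TRA-AGC14-1 on, the run was a mirrored stretch of 18 genes over 154938 bp. Read from its ends inwards, 7 of 8 pairs of distances between neighbouring gene starts were equal to within 28 bp, for example 14226 bp before TRM-CAT5-1 and 14226 bp after TRM-CAT5-2. The genes at the 7 matching places had the same amino acid and anticodon on either side. The stretch held 10 alanine (AGC), 5 methionine and 3 isoleucine genes.

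The peaks were called from uniquely placed reads, which a duplicated stretch may not give, and the part of this in the missing calls was not tested. Of the 126 genes outside the mirrored stretch, 92 were called (73.0%, 64.7% to 80.0%). Outside it, 15 of 17 alanine, both elongator methionine and 6 of 10 isoleucine genes were called.

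**Figure D3:**
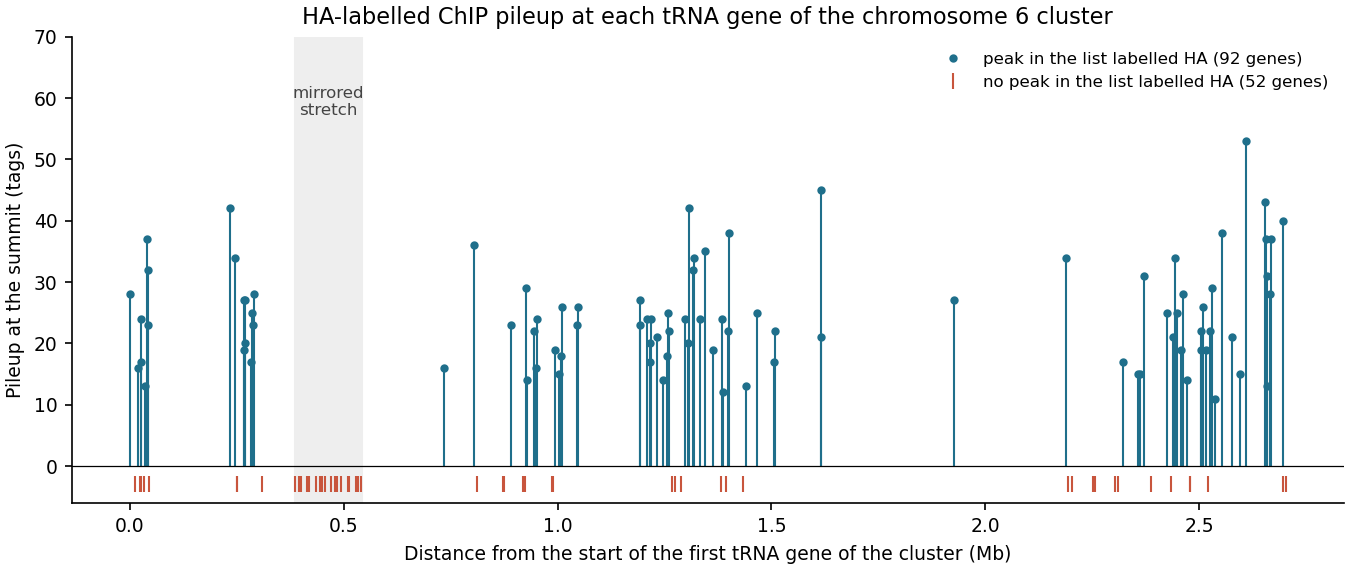
The pileup at the summit (tags) labelled HA is drawn for each called tRNA gene by its distance from the start of the first gene of the cluster (Mb), and orange ticks below 0 mark the 52 genes without a peak. Called genes are spread over all groups of the cluster, and none lies in the mirrored stretch (grey).

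Outside the mirrored stretch calls were spread over the whole cluster. When gaps of more than 100 kb were used to part it, 7 groups resulted. From the end nearest the telomere, 8 of 13, 10 of 31, 14 of 21, 27 of 33, 2 of 2, 1 of 1 and 30 of 43 genes were called. These counts include the mirrored stretch, whose 18 uncalled genes all lie in the second group. The median pileup of the groups with more than 2 genes was 22.5 to 26 tags, with 95% intervals of the median that ran from 13 to 37 tags in the first group and from 20 to 25 tags in the fourth. The difference between the groups was not tested. Genes with a neighbouring tRNA gene less than 1000 bp away were called in 21 of 28 cases (75.0%, 56.6% to 87.3%). The others were called in 71 of 116 (61.2%, 52.1% to 69.6%), with overlapping intervals and a median pileup of 24 tags in both. The 116 include all genes of the mirrored stretch, so these shares do not compare spacing alone.

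The numbers in the symbols were also compared. Genes whose mature sequence is numbered 1 or 2 were called in 51 of 61 cases (83.6%, 72.4% to 90.8%), those numbered 3 or 4 in 22 of 38 and those numbered 5 or higher in 19 of 40. Outside the mirrored stretch the latter became 22 of 35 (62.9%, 46.3% to 76.8%) and 19 of 30 (63.3%, 45.5% to 78.1%), so that the intervals overlapped with that of the genes numbered 1 or 2. A fold of at least 5 was reached by 22 of the 61 genes numbered 1 or 2 and by 8 of the 38 numbered 3 or 4. Of the 40 numbered 5 or higher 1 reached it, TRK-TTT6-1. Outside the mirrored stretch the latter counts were 8 of 35 and 1 of 30. The 22 include TRX-CAT1-7 through the summit at its neighbour, its own fold being 4.24. Genes that share their number with no further copy were called in 49 of 77 cases (63.6%, 52.5% to 73.5%). Those with further copies were called in 43 of 67 (64.2%, 52.2% to 74.6%). Both counts include the mirrored stretch, and most of its 18 uncalled genes fell among those with further copies. The near-equal shares therefore do not describe the genes outside it. The 67 also include 5 alanine genes without a number, none of them called, which the number classes leave out. The median fold was 4.26 (95% interval of the median 3.91 to 4.69) without and 4.81 (4.15 to 6.17) with further copies.

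The 12 genes of at least 87 bp, a length reached by tyrosine, leucine CAA, isoleucine TAT and arginine TCT genes, which are known to hold an intron, were called in 9 cases (75.0%, 46.8% to 91.1%), against 63.9% of the whole cluster. Their median pileup was 32 tags (95% interval of the median 17 to 43) and their median fold 6.69 (4.02 to 8.25). Both intervals held the medians of the whole cluster, 24 tags and 4.41.

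The summits lay on the genes. When each peak was given to the gene nearest its summit, 85 of the 92 summits were inside the tRNA gene, 88 were within 50 bp of its midpoint, and the median distance was 12.25 bp. The peaks had a median length of 283 bp, which is longer than the genes, and ChIP fragments of this size cannot place a contact within a gene. The strand of the genes was not analysed here.

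**Figure D4:**
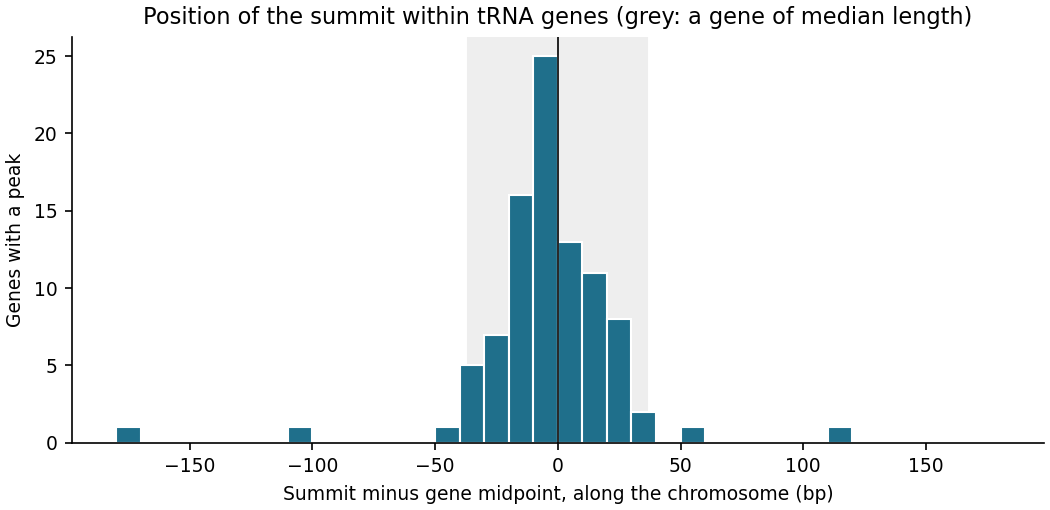
The histogram shows the distance from the midpoint of the tRNA gene to the summit of its peak labelled HA, in bp along the chromosome, for the 92 called genes. Most summits fall within the width of a gene (grey), and 88 are within 50 bp of the midpoint.

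The background expected from the input was also above the genome-wide level at these genes. It was computed from pileup and fold, so it is not a count of input tags at the gene. The background at the 92 genes was 2.1 to 8.37 tags with a median of 4.18, where the genome-wide level was 1.05 tags. None of the 92 was at the genome-wide level, against 54.4% of all other peaks labelled HA. It was also higher than at called tRNA genes of chromosome 1 (median 3.36) and of the other chromosomes (median 2.87), while the median pileups were 24 (95% interval of the median 22 to 25), 28 (20 to 40) and 23.5 (21 to 24) tags in the same order. The median fold was 4.41 (4.15 to 4.81) in the cluster, 6.14 (5.02 to 8.74) on chromosome 1 and 6.07 (5.67 to 6.47) on the other chromosomes. At the median background of the cluster a call needed 10 tags, and at the highest 17, where 4 sufficed at the genome-wide level. The genes without a call may therefore hold tags up to such numbers. The part of the input in the values was not tested.

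**Figure D5:**
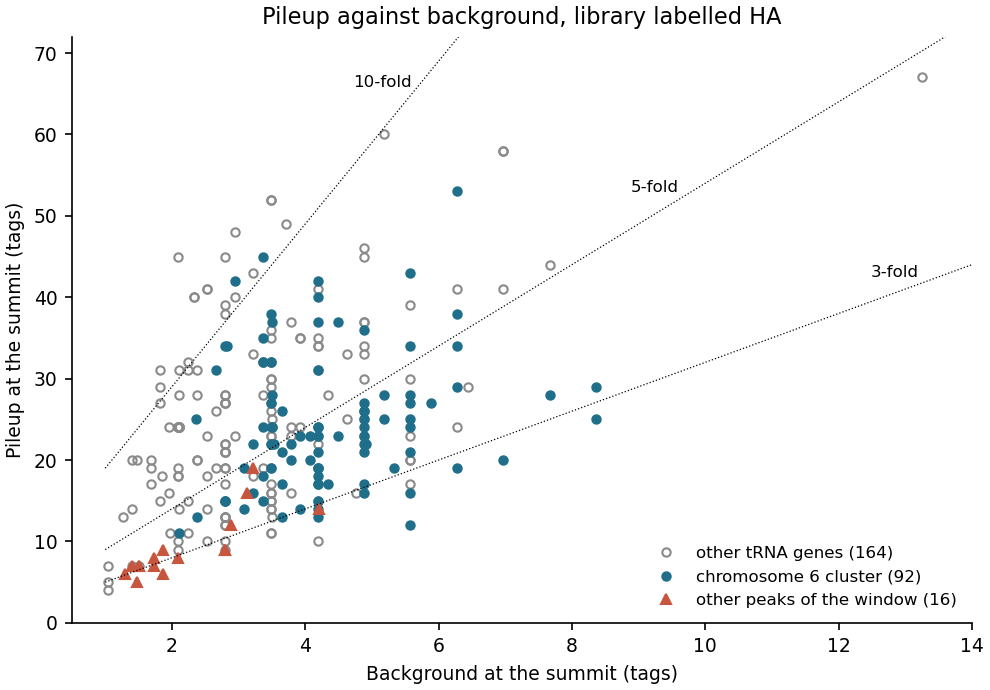
Pileup (tags) against background (tags) at the summit, library labelled HA, for called tRNA genes of the cluster, called tRNA genes elsewhere (open) and the other peaks of the window (triangles); dotted lines mark a fold of 3, 5 and 10. The cluster lies at a median background of 4.18 tags and a median pileup of 24.

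Other genes of the same stretch of chromosome 6 were compared. The window had 108 peaks labelled HA, of which 92 overlapped a tRNA gene, and the other 16 had 5 to 19 tags and a −log10 q of at most 4.77. Of the 55 histone genes between the same limits, which supply the core and linker proteins of nucleosomes and are read by RNA polymerase II, 2 held a peak labelled HA and 2 a peak labelled WT (3.64% in both lists), against 18.0% and 8.58% of all protein-coding genes. The histone genes are short, with a median of 489 bp against 24115 bp. H4C2 had 16 tags and a fold of 4.12 in the library labelled HA and no peak in the other. H3C2 was called in both, with 14 tags (fold 2.88) labelled HA and 15 tags (fold 2.23) labelled WT, and H1-4 had 11 tags (fold 2.11) in the library labelled WT alone. Of the 63 other protein-coding genes, 7 (11.1%) and 4 (6.35%) held a peak, with a median gene length of 11062 bp. The 7 rest on fewer peaks, since ZNF391 and ZNF184 shared one (5 tags, fold 2.43) and ZSCAN31 and ZKSCAN3 another (9 tags, fold 2.63). One of the 7, SCAND3, was called only through the peak at TRA-AGC3-1, which lies within it (17 tags, fold 3.37). Of 7 tRNA pseudogenes none held a peak in either list.

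The genes of the RNA polymerase III machinery itself were read by their own list of subunits, initiation factors and the repressor MAF1. Of these 23 genes, 9 held a peak labelled HA (39.1%, 22.2% to 59.2%) and 2 a peak labelled WT (8.70%, 2.42% to 26.8%), against 18.0% and 8.58% of all protein-coding genes. Their median length was 24921 bp, against 24115 bp for all protein-coding genes, and the difference in shares was not tested. Most of these were weak, with 5 to 8 tags at POLR3B, BRF1, GTF3C1, POLR3F, POLR3G, CRCP and GTF3C4. POLR3E, a polymerase subunit, had 21 tags (fold 4.90, −log10 q 5.70) labelled HA and 6 tags (fold 2.32) labelled WT. Each value is from the strongest peak of its list anywhere in the gene of 37688 bp. Whether these peaks lie at the same place was not examined. MAF1 had 17 tags and a fold of 4.26 in the library labelled HA.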

How the data were processed

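K562 chromatin was precipitated with an HA antibody, giving 1 ChIP library and 1 input per condition. Per the submitters' processing notes, reads were aligned with BWA 0.7.12. Per the file headers, the authors ran MACS 2.1.0.20150420 on unique, deduplicated reads, each ChIP library against the input of its title, at a p-value cutoff of 0.005, with tags extended to 201 bp (HA) or 234 bp (WT) and peaks split at several summits. The deposited signal is the pileup at the summit, the deposited ratio is the fold enrichment over the local background, and p-values and q-values were deposited as −log10. The headers say that q-values would not be computed, yet values are present and were used. The files name no genome build.

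tRNA genes came from RefSeq (GRCh38.p14), with which the files share chromosome names, and a gene was called when a peak overlapped it by 1 bp. A gene with several peaks took the one of highest −log10 q. Background was computed from pileup and fold, and the Poisson p from it matched the deposited one within 0.02 for 100% of peaks of both lists. Shares have 95% Wilson and pileups exact Poisson intervals. No test was made. Genes named are the 12 of highest −log10 q, the 5 lowest folds, the leading gene of each isotype, families of 4 or more and called genes of the comparison lists, and any other gene was picked with its values in view. The members and lists were chosen with earlier results of these data known. The planned motif counts were not run. In simulated peaks, each laid across a tRNA gene, all 150 planted genes of 443 were recovered. This checks the overlap step and not the detection of peaks. The work used matplotlib 3.10.9, scipy 1.17.1, numpy 2.4.6, pandas 2.3.3 and Python 3.11.15.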

Additional observations from a re-analysis of the deposited data

How the results depend on the processing

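No paired analysis was possible because there was 1 ChIP library per condition, which also prevented leaving out a replicate. The strength required of a peak changed the results most. At a −log10 q limit of 5, the 92 called genes of the cluster became 52, their median fold 5.50 and median pileup 27.5 tags, and the called share of the tRNA genes outside the cluster went from 54.8% to 39.5%. With a fold of at least 5 these values were 31 genes, 7.33, 34 tags and 37.1%, which follows from the filter itself. At this last limit the cluster had 31 of 92 called genes left and the tRNA genes outside it 111 of 164, beside the higher background of the cluster. With the summit required inside the gene, 85 genes of the cluster were called, and the share outside the cluster was 46.8%. The called share of the cluster, 63.9%, was 73.0% without the mirrored stretch, an alternative chosen after seeing the data. The library labelled WT had 0 called genes under a distance of 100 bp and over all tRNA genes of chromosome 6. The other alternatives could not raise its count of 0. Whole-gene cover, a distance of 100 bp, 1 gene per peak, the other windows and the mean over peaks left the results within their intervals or within 1.5 times the count. The depth limits single genes, since a pileup of 24 tags carries a wide Poisson interval and genes without a call are known only to lie under the cutoff.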

Other observations

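Of the 16 peaks labelled HA in the window that overlapped no tRNA gene of the cluster, the strongest had no annotated gene at its place. It lay on chromosome 6 from 27777801 to 27778042, with 19 tags over a background of 3.22, a fold of 4.74 and a −log10 q of 4.77, and the nearest tRNA gene, TRQ-CTG6-1, was 13314 bp away. The library labelled WT had no peak there. This peak was chosen after its values were seen.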
